A study of Mus musculus with 3 samples.

Results

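The ribosomal protein genes encode the protein components of the cytoplasmic ribosome, and the positions of H3K4me1 enriched regions around their transcription start sites (TSS) are described here for islets of Langerhans treated with cytokines. Members were the autosomal protein-coding genes of GENCODE M1 (mouse genome build mm9) whose symbol was Rpl or Rps followed by a digit, together with Rplp0, Rplp1, Rplp2 and Rpsa. Pseudogenes by name, ribosomal protein kinases and Rps19bp1 were left out. This gave 80 genes, 48 of the large (60S) and 32 of the small (40S) subunit, out of 21418 autosomal protein-coding genes. Islets were isolated from mice labelled as strain CD1 and aged 8 to 12 weeks (ICR mice of a narrower age range in the study's methods). They were cultured for 4 days in RPMI with TNFα at 0.16 ng/ml, IL-1β at 0.25 ng/ml and IFNγ at 1.6 ng/ml. Chromatin was precipitated with an antibody to monomethylated lysine 4 of histone H3 (H3K4me1), and DNA of 4 such experiments was pooled into 1 sequencing library, so no replicate error and no p-value could be given. The measurement was a list of 65709 enriched regions whose edges lay on a 200 bp grid. It carried no read counts, so the depth was unknown and a missing region cannot be told apart from a region under the caller's threshold. Untreated H3K4me1 data and the matching RNA-seq were not analysed here, so whether any position below changed with cytokines cannot be read from these data.

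Each ribosome takes up close to equal numbers of most of its proteins, and their genes are among the most strongly and widely transcribed in mammalian cells. Many of their mRNAs begin with a C followed by an unbroken run of pyrimidines, the 5′ terminal oligopyrimidine (TOP) motif, through which mTOR signalling adjusts their translation. H3K4me1 marks enhancers and the flanks of active promoters. At the start of a strongly transcribed gene the same lysine is mostly trimethylated, and the monomethyl mark is then found to either side.

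Of the 80 ribosomal protein genes, 77 (96.2%) had at least 1 H3K4me1 region within 5 kb of the TSS, against 66.4% of all autosomal protein-coding genes. A region most often began inside the gene, downstream of a TSS that it left uncovered. The TSS was covered by a region in 17 members (21.2%), against 32.5% of all autosomal protein-coding genes. It was uncovered with a region on both sides in 30 members (37.5%), against 14.5% of all genes, and uncovered with a region downstream only in 28 (35.0%), against 13.9%. A region upstream only was found in 2 members (2.50%), against 5.51% of all genes, and no region within 5 kb in 3 (3.75%), against 33.6%. Both uncovered classes with a downstream region thus held 58 members (72.5%), against 28.4% of all genes. The lower share of covered starts depended on how the start was defined. It narrowed to 32.5% of members against 36.7% of all genes when a region within 200 bp counted as covering, and turned to 42.5% against 40.6% when any annotated TSS of a gene could be covered. The other classes moved too. With regions of at least 1000 bp alone, 17.5% of members were flanked on both sides, 47.5% had a region downstream only (all genes 14.7%) and 13.75% had none. A region downstream only was found in 23.75% of members against 11.1% of all genes with any annotated TSS, and in 26.25% against 13.6% within 10 kb. Members had a median of 3.5 annotated TSS per gene and all genes a median of 2.

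**Figure D1:**
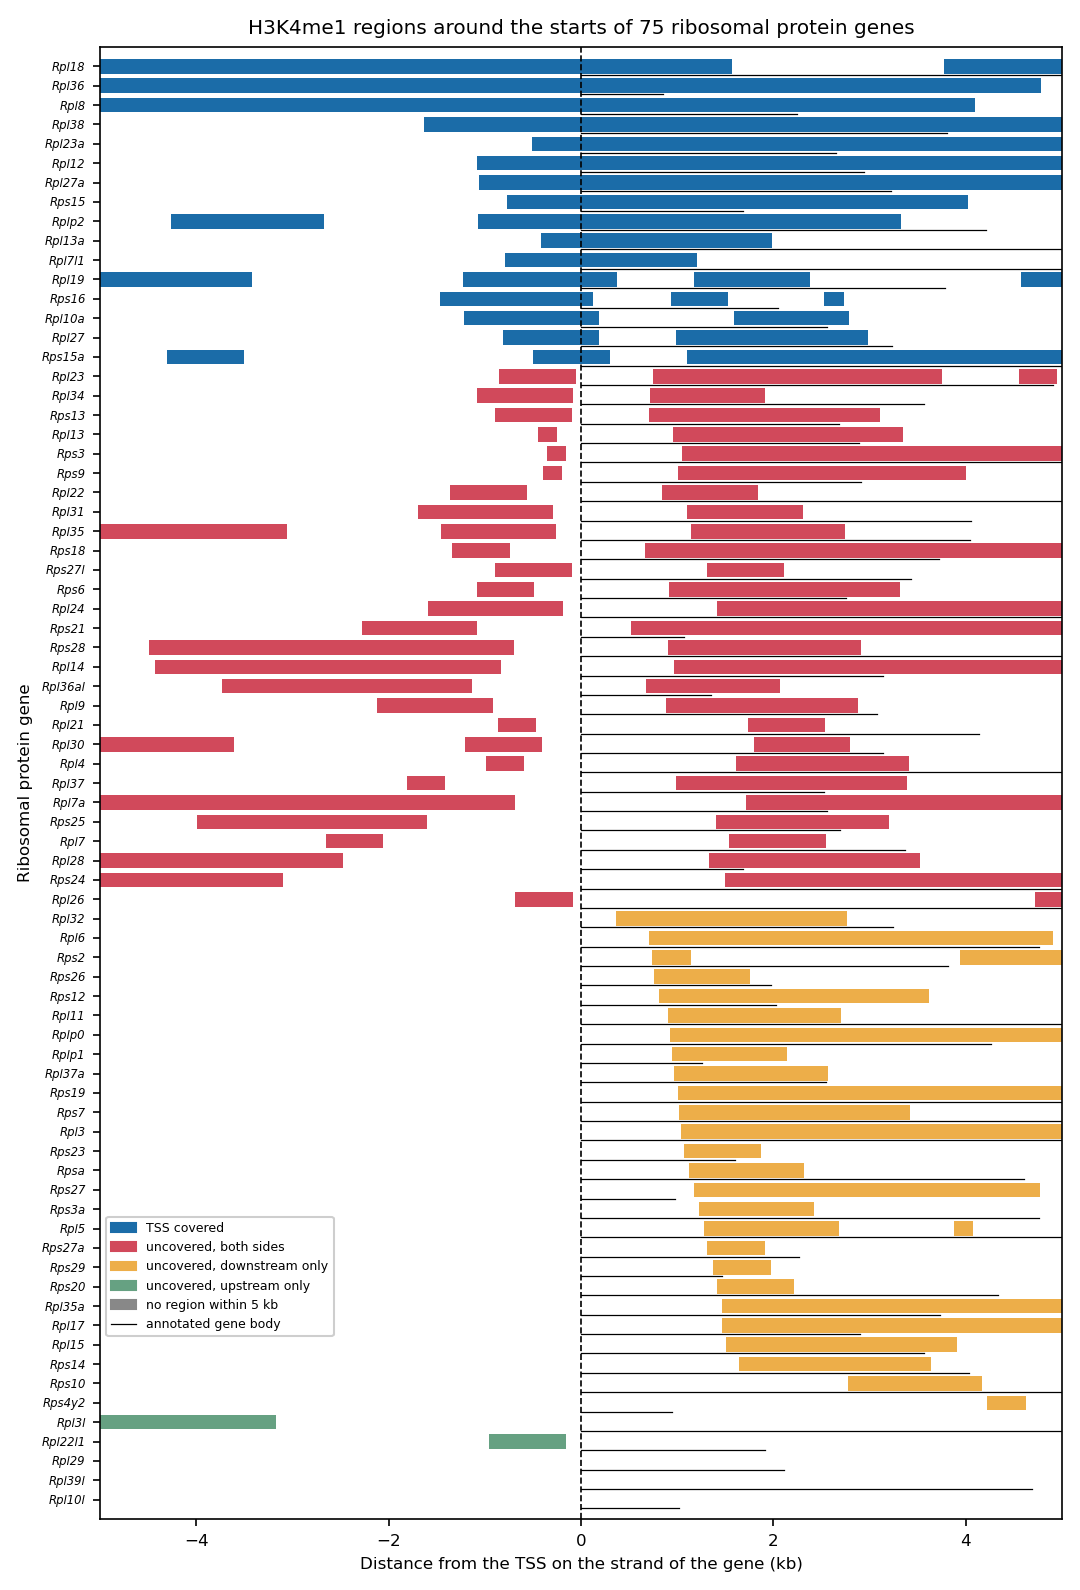
H3K4me1 regions (bars) within 5 kb of the TSS of the 75 ribosomal protein genes named here, with distance in kb on the strand of the gene, the TSS as a dashed line at 0 and the annotated gene body as a thin black line. Colours give the class of the TSS: 16 covered, 28 flanked on both sides, 26 with a region downstream only, 2 upstream only and 3 with none, and most bars downstream begin close to 1 kb from the TSS.

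The starts below are shown so that the TOP motif can be read in members of 4 classes of H3K4me1 region, 3 of each, chosen after their values were seen. The 9 members with a region were picked because the motif stands exactly at their RefSeq start, while the 3 with no region are all there are of that class. The set therefore says nothing of whether the motif goes with a region. Each line gives 15 bases before and 15 from the start site, 5′ to 3′ on the strand of the gene, from the mm9 genome. The start is that of the RefSeq promoter placed in mm9 by sequence match, except for Rpl10l, Rpl29 and Rpl39l, where it is the GENCODE M1 TSS. Capitals mark a C and the unbroken pyrimidines after it, read from the start, or in Rpl39l from 4 bases before its GENCODE start. The RefSeq start of Rpl39l lies 2 bp further downstream and has no such motif within 5 bp. The covered members shown are Rpl38 (chr11:114529879-114529908, plus strand), Rplp2 (chr7:148633535-148633564, plus) and Rps15a (chr7:125259647-125259676, minus).
Rpl38: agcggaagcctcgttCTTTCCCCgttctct
Rplp2: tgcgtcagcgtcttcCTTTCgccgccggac
Rps15a: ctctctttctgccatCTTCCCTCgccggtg
The members flanked on both sides are Rpl14 (chr9:120480619-120480648, plus), Rpl28 (chr7:4744552-4744581, plus) and Rpl35 (chr2:38860637-38860666, minus).
Rpl14: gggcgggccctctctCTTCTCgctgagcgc
Rpl28: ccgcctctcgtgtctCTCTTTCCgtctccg
Rpl35: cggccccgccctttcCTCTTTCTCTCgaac
The members with a region downstream only are Rpl15 (chr14:19103486-19103515, minus), Rps10 (chr17:27772175-27772204, minus) and Rps27 (chr3:90017556-90017585, minus).
Rpl15: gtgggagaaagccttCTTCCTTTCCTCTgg
Rps10: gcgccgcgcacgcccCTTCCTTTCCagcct
Rps27: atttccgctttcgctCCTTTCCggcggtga
The members with no region within 5 kb are Rpl10l (chr12:67385374-67385403, minus), Rpl29 (chr9:106331770-106331799, plus) and Rpl39l (chr16:10170304-10170333, plus).
Rpl10l: tttggcctccattttgcggctggcggtggg
Rpl29: gaaccttttttctccgccagcagtgaggga
Rpl39l: agctcccaggcCTTTCCggatttccggtgg

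A C with at least 4 pyrimidines after it stood exactly at a RefSeq start of 13 of the 59 members with a RefSeq promoter (22.0%), against 467 of 17491 protein-coding genes of that table (2.67%), counting a gene with several RefSeq starts by any of them. Within 5 bp of a RefSeq start it was found in 28 of 59 (47.5%), against 21.5%. By class, it stood at a RefSeq start of 3 of 13 covered members, 6 of 25 flanked on both sides and 4 of 17 with a region downstream only. Of these 4, Rpl35a has it at a RefSeq start other than the one nearest its GENCODE start. Within 5 bp the counts were 8 of 13, 12 of 25 and 7 of 17. At the GENCODE M1 start, which is the most upstream start of a protein-coding transcript, the motif stood exactly at the TSS of only 3 of 80 members (3.75%), against 2.05% of all genes. Within 5 bp of that start it was found in 17 of 80 (21.2%), against 18.1%, a smaller difference than at RefSeq starts. Of the 58 members whose RefSeq start could be placed, 35 had it within 20 bp of the GENCODE start and 51 within 200 bp. With RefSeq starts, an alternative added after the values were seen, 56 of these 58 members kept their class, the median distance to the downstream region was 988 bp, and the exceptions were Rpl18 and Rps2, which both came to be flanked on both sides.

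The distance from an uncovered TSS to the next region downstream varied little among the ribosomal protein genes. Over the 58 members it had a median of 1042 bp, quartiles of 907 and 1413 bp and a range of 365 to 4716 bp. It lay between 500 and 2000 bp in 54 of 58 (93.1%), against 65.0% of the 6086 genes of all kinds with the same arrangement and 74.3% of those with a CpG-rich start. It did so in 87.5% of initiation and elongation factor genes (28 of 32, median 1074 bp), in 81.8% of genes of ribosome assembly (9 of 11, median 1339 bp) and in 78.1% of mitochondrial ribosomal protein genes (25 of 32, median 738 bp, quartiles 575 and 975 bp) with this arrangement, so the narrow range was not particular to the members. The median over all genes was 1078 bp, with quartiles of 657 and 1692 bp. The downstream regions were 400 to 8800 bp wide (median 2000 bp) and ended at a median of 3332 bp from the TSS. Ribosomal protein genes are short, with a median length of 3306 bp and a range of 849 bp (Rpl36) to 42639 bp (Rpl24), against 15535 bp for all genes. The near edge of the downstream region was in an intron in 49 of 58 members, in an exon in 7 (Rpl13, Rpl36al, Rpl4, Rps20, Rps29 and Rps3 among them) and past the annotated end of the gene in 2 (Rps27 and Rps4y2). In 29 of 58 the region began inside the gene and ran past its end.

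**Figure D2:**
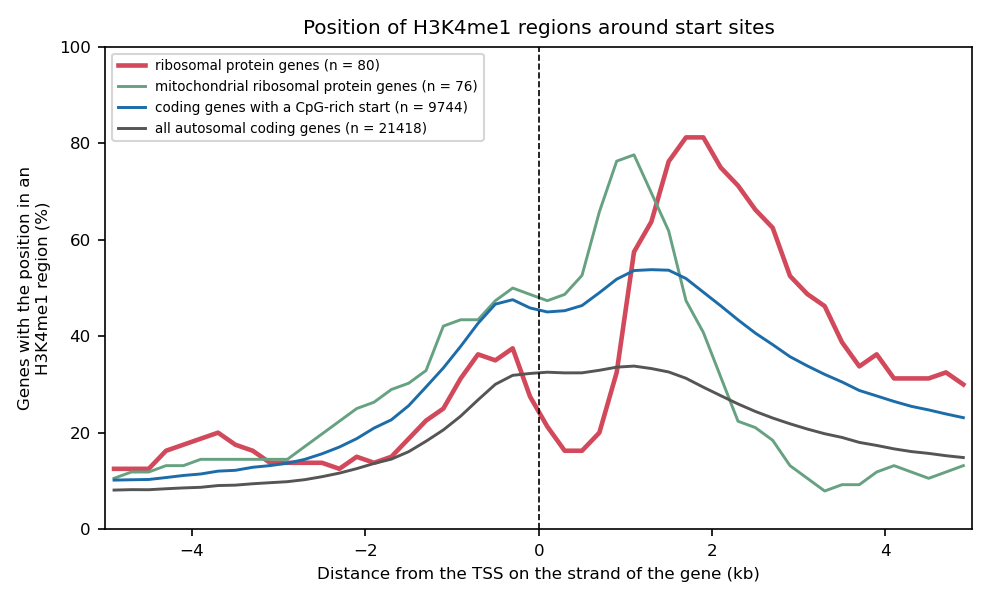
Percentage of genes whose position at each distance from the TSS (200 bp bins, kb on the strand of the gene) lay in an H3K4me1 region, for ribosomal protein genes, mitochondrial ribosomal protein genes, protein-coding genes with a CpG-rich start and all autosomal protein-coding genes. The ribosomal protein genes fell to 16.2% at 300 bp downstream and reached 81.2% at 1700 bp, a deeper trough and a later peak than in the other 3 lists.

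Read along the gene, 37.5% of members lay in a region at 300 bp upstream of the TSS, 16.2% at 300 bp downstream and 81.2% at 1700 bp downstream. Over all genes the same positions gave 31.9%, 32.4% and 31.3%. Most ribosomal protein genes have a CpG-rich start (71 of 80, or 88.8%, against 45.5%), defined as at least 50% G and C and a ratio of observed to expected CpG of at least 0.6 within 500 bp of the TSS. Genes are far more often marked nearby when their start is CpG-rich, and only 5.83% of the 9744 such genes had no region within 5 kb. A region lay within 5 kb of 96.2% of members and 94.2% of CpG-rich genes. The positions differed, since 45.1% of CpG-rich genes had a covered TSS, 18.6% a region downstream only and 44.9% an uncovered TSS with a region downstream. Restricting these to genes of up to 10 kb, as most ribosomal protein genes are, gave 49.8% covered and 13.8% with a region downstream only over 2403 genes.

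The classes of the other genes of protein synthesis were set beside those of the members. Mitochondrial ribosomal protein genes make the separate ribosome of mitochondria. Of 76 such genes, 36 (47.4%) had a covered TSS, 17 were flanked on both sides, 15 (19.7%) had a region downstream only, 6 upstream only and 2 none. When any annotated TSS could be covered, the covered shares were 54.0% of these genes and 42.5% of members, and the difference (members minus these genes) went from -26.12 to -11.45 percentage points. Initiation and elongation factor genes bring mRNA and tRNA to the ribosome. Of 54, 21 (38.9%) were covered, 22 (40.7%) flanked on both sides, 10 (18.5%) had a region downstream only and 1 had none. Among 21 genes of ribosome assembly and of proteins associated with the ribosome or its mRNAs, 7 were covered, 6 flanked on both sides, 5 had a region downstream only, 2 upstream only and 1 (Taf1b) none. Fau, which encodes a ubiquitin-like protein fused to a small subunit protein, was covered by a region of 7400 bp. The assembly factors Ncl, Nop56 and Nop58 and the poly(A) binding protein genes Pabpc1 and Pabpc4 had a region downstream only, at 1030, 1435, 1548, 2128 and 933 bp respectively.

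**Figure D3:**
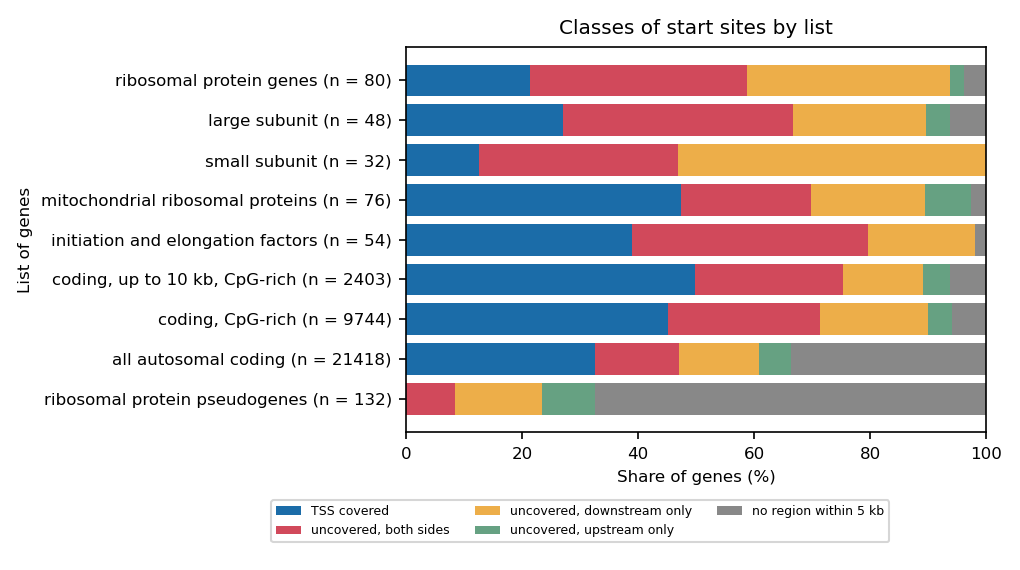
Stacked bars of the percentage of genes in each class of TSS, with the number of genes of each list beside its name. Ribosomal protein genes had 21.2% covered starts and 35.0% with a region downstream only, mitochondrial ribosomal protein genes 47.4% and 19.7% (with any annotated TSS, covered starts were 42.5% and 54.0%), and ribosomal protein pseudogenes no covered start.

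The small and large subunits differed in their counts. Among the 32 small subunit genes, 4 were covered, 11 flanked on both sides and 17 (53.1%) had a region downstream only, and all had at least 1 region. Among the 48 large subunit genes, 13 were covered, 19 flanked on both sides, 11 (22.9%) had a region downstream only, 2 upstream only and 3 none. An uncovered TSS with a region downstream was thus found in 28 of 32 (87.5%) small and 30 of 48 (62.5%) large subunit genes. The distance to that region was nearly the same, with medians of 1033 and 1070 bp. No test of the difference was made, because all genes came from 1 library.

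Of the 17 covered members, 16 are named here: Rpl10a, Rpl12, Rpl13a, Rpl18, Rpl19, Rpl23a, Rpl27, Rpl27a, Rpl36, Rpl38, Rpl7l1, Rpl8, Rplp2, Rps15, Rps15a and Rps16. The GENCODE start of Rpl13a coincides with an annotated start of the coding gene Flt3l, and its RefSeq start could not be placed. Its covered start cannot be told apart from that of Flt3l. The 17 covering regions were 800 to 13200 bp wide (median 4800 bp) and reached a median of 1078 bp upstream and 2765 bp downstream. The widest covered Rpl18 (chr7:52959201-52972400, 13200 bp), reaching 11626 bp upstream across the start of the divergent gene Sphk2, which encodes a sphingosine kinase and starts 250 bp away. The Rpl18 start of RefSeq lay 2614 bp downstream of the GENCODE start and outside this region. The next widest covered Rpl36 (chr17:56745401-56757600, 12200 bp), the shortest member. A region of 9200 bp covered Rpl8 (chr15:76729401-76738600), whose protein lies near the peptidyl transferase centre of the ribosome. Rpl38, whose loss in mice alters the translation of Hox mRNAs, lay under 9000 bp (chr11:114528201-114537200). Rpl23a, whose protein sits at the mouth of the nascent chain tunnel, lay under 8200 bp (chr11:77989401-77997600). The last 4 of these regions ran over the whole gene, while that of Rpl18 ended 1573 bp downstream of the TSS.

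At the other end, 5 covering regions ended within 400 bp downstream of the TSS. They were those of Rps16 (1600 bp wide, ending 129 bp downstream), Rpl10a (1400 bp, 184 bp), Rpl27 (1000 bp, 188 bp), Rps15a (800 bp, 299 bp) and Rpl19 (1600 bp, 376 bp). Such genes had a further region downstream, as the map of regions by gene shows, and their TSS lay at the inner edge of an upstream region. Conversely, 9 uncovered starts had an upstream region whose edge was within 200 bp, the width of 1 grid step: Rpl23 (50 bp), Rpl26 (85 bp), Rpl34 (85 bp), Rps27l (93 bp), Rps13 (97 bp), Rps3 (153 bp), Rpl22l1 (158 bp), Rpl24 (188 bp) and Rps9 (195 bp). No region downstream of an uncovered start was that close. The line between covered and uncovered was therefore decided by less than 1 grid step for these 9 genes and for Rps16, Rpl10a and Rpl27. At Rps15a and Rpl19 the covering region ended more than 1 step past the TSS. The other 12 covering regions reached over 400 bp to both sides.

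Of the 30 members flanked on both sides, 28 are named here: Rpl13, Rpl14, Rpl21, Rpl22, Rpl23, Rpl24, Rpl26, Rpl28, Rpl30, Rpl31, Rpl34, Rpl35, Rpl36al, Rpl37, Rpl4, Rpl7, Rpl7a, Rpl9, Rps13, Rps18, Rps21, Rps24, Rps25, Rps27l, Rps28, Rps3, Rps6 and Rps9. Over all 30, the gap between the flanking regions was 800 to 4800 bp, with a median of 1600 bp against 2200 bp over all genes of this class. The median was 1400 bp in mitochondrial ribosomal protein genes and 1800 bp in genes with a CpG-rich start. It was 2300 bp in initiation and elongation factor genes and 2700 bp in genes of ribosome assembly. A narrow gap was thus not particular to the members. The gap was not centred on the TSS. The upstream edge was nearer in 21 members and the downstream edge in 9, with medians of 524 bp upstream and 1027 bp downstream. Over all uncovered starts with a region on the side measured, all genes had medians of 788 bp upstream and 1078 bp downstream. CpG-rich genes had 670 and 1056 bp, and genes of up to 10 kb had 1038 and 1035 bp. A nearer upstream edge was thus not particular to the members. The upstream regions were narrower than the downstream ones, with a median width of 800 bp.

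The narrowest gaps, of 800 bp, were those of Rpl23, Rpl34 and Rps13. At Rpl23 the regions began 50 bp upstream (chr11:97643801-97644600) and 751 bp downstream (chr11:97640001-97643000). Gaps of 1200 bp followed at Rpl13, Rps3 and Rps9, among others, and the proteins of Rps3 and Rps9 line the entry of the mRNA channel. The widest gap was that of Rpl26, a gene whose product also binds p53 mRNA, with regions 85 bp upstream and 4716 bp downstream. It was followed by Rps24 (4600 bp), Rpl28 (3800 bp), Rpl7 (3600 bp) and Rps25 (3000 bp). In these 4 the upstream region was the distant one, 3103, 2476, 2058 and 1597 bp from the TSS, and the downstream region began at 1498, 1325, 1543 and 1404 bp. Rps6, whose protein is the substrate of the S6 kinases, had regions at 485 bp upstream and 916 bp downstream.

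**Figure D4:**
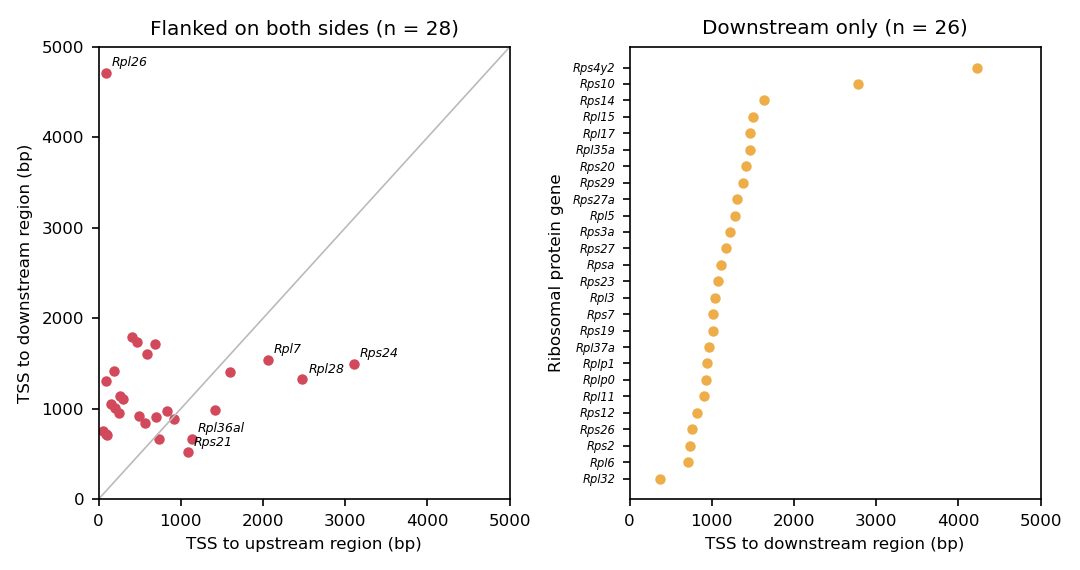
Left, distance in bp from the TSS to the nearest upstream region (x axis) and downstream region (y axis) for the 28 named ribosomal protein genes flanked on both sides, with the grey line at equal distances and the outlying genes named. Right, distance in bp from the TSS to the downstream region for the 26 named genes with a region downstream only, from 365 bp at Rpl32 to 4223 bp at Rps4y2.

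Of the 28 members with a region downstream only, 26 are named here: Rpl11, Rpl15, Rpl17, Rpl3, Rpl32, Rpl35a, Rpl37a, Rpl5, Rpl6, Rplp0, Rplp1, Rps10, Rps12, Rps14, Rps19, Rps2, Rps20, Rps23, Rps26, Rps27, Rps27a, Rps29, Rps3a, Rps4y2, Rps7 and Rpsa. The nearest region upstream was a median of 16566 bp away (range 5565 to 56692 bp), over 10 kb away in 21 members and from 5 to 10 kb in 7. Rpl5 and Rpl11, whose proteins bind 5S rRNA and can hold Mdm2 away from p53, had their downstream region at 1280 and 908 bp. At Rps19, the gene most often mutated in Diamond-Blackfan anaemia, it began at 1011 bp. At Rps27a, which encodes ubiquitin fused to a small subunit protein, it began at 1309 bp and was 600 bp wide. The closest was that of Rpl32 at 365 bp, and the most distant were those of Rps10 at 2774 bp (1389 bp from its RefSeq start) and Rps4y2 at 4223 bp. RefSeq lists Rps4y2 as the transcribed pseudogene Rps4l.

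The genes of the ribosomal stalk, which recruits the GTPases of translation, did not share a class. Rplp0, the base of the stalk, had a region downstream only at 925 bp, 7600 bp wide. Rplp1 had one at 945 bp, 1200 bp wide. Rplp2, the partner of Rplp1, was covered by a region of 4400 bp (chr7:148632201-148636600). Rpl12, which binds the stalk base, was covered by a region of 8000 bp. Rpsa, the small subunit protein also known as the laminin receptor, had a region downstream only at 1117 bp.

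Of the 5 members with no region over or downstream of the TSS, 4 are paralogs. The members with none within 5 kb were Rpl10l, Rpl29 and Rpl39l, with the nearest region 49013, 7216 and 142282 bp from the TSS. Both members with a region upstream only, Rpl22l1 (158 bp) and Rpl3l (3174 bp), are paralogs too. Of 7 genes named as paralogs of another ribosomal protein gene, 2 had no region, 2 an upstream region only, 2 were flanked on both sides and 1 was covered. Of the 73 others, 1 had no region and none an upstream region only. Rpl3l is a striated muscle form and Rpl10l is used in the testis. The upstream region of Rpl3l (chr17:24859001-24861600) also lay within 5 kb of the TSS of Rps2, which is 9713 bp from that of Rpl3l, and was the only region shared between members. Beside their parents, Rpl3 had a region at 1036 bp downstream, Rpl22 was flanked at 562 bp upstream and 839 bp downstream, and Rpl7 was flanked while Rpl7l1 was covered by 2000 bp. Rps27l was flanked at 93 and 1308 bp, and Rps27 had a region at 1173 bp downstream only. Rpl36al was flanked at 1131 and 670 bp. The parents of Rpl10l, Rpl39l and Rpl36al are X-linked.

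Rpl29, a member with no paralog name, is the exception among the widely expressed genes, and lies between regions 7585 bp upstream and 7216 bp downstream. Ribosomal protein genes have many processed copies in the genome, so reads from them can map to several places, and how such reads were treated is not given in the sources used here. The share of 32 bp words within 1 kb of the TSS that occur once in mm9 had a median of 92.5% over the members (range 72.5 to 100%), against 97.5% over all genes. It was 80% for Rpl10l, 82.5% for Rpl29 and 100% for Rpl39l, in words taken every 50 bp. Read at every position it was 71.9% for Rpl10l, which at 54.1% had the lowest share of any member in the kilobase downstream. At Rpl29 it was 71.3% in the kilobase upstream and 88.8% downstream. In the kilobase downstream the median was 89.0% over the members, read at every position, and 100% over all genes, read every 50 bp. The 51 members with at least 90% unique words had 19.6% covered starts, against 38.3% of all genes with as many. Its part in the missing regions and in the uncovered starts was not tested.

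Whether a member had a region upstream went with its neighbours. A protein-coding gene started within 5 kb upstream of 25 members, and 22 of these (88.0%) had a region upstream or over the TSS. Of the 55 members without such a neighbour, 27 (49.1%) did. The same split over all genes gave 78.0% of 3660 and 47.3% of 17758, the same order as among the members. A region downstream only was found in 3 of the 25 members and in 25 of the 55 (45.5%), against 9.07% and 14.9% of all genes. A divergent coding gene started within 1 kb of 12 members (15%), against 9.25% of all genes and 16.9% of CpG-rich genes. Within 5 kb such a start was found for 22 (27.5%), against 13.6% and 20.9%. The share within 1 kb was thus not particular to the members. Examples are Lias, 54 bp from Rpl9, Ndufa7, 29 bp from Rps28, and Rab13, 44 bp from Rps27. A region upstream of such a member cannot be told apart from a region downstream of its neighbour's start.

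Short motifs were counted in the promoters of the members. CCGGAAG, the core bound by ETS factors such as GABPA, was found on either strand between 250 bp before and 50 bp after the GENCODE TSS in 24 members (30%), against 11.1% of all genes and 19.1% of CpG-rich genes. Among members with a CpG-rich start it was in 23 of 71 (32.4%). It was in 6 covered members, 8 flanked on both sides, 9 with a region downstream only and 1 with none. AAGATGG, the core of the YY1 motif, was in 9 (11.2%, against 6.73% of all and 6.98% of CpG-rich genes), of which 5 were covered, 4 had a region downstream only and none was flanked on both sides. TATAA between 40 and 20 bp before the TSS was in 3 (3.75%, against 3.88% of all and 1.38% of CpG-rich genes). A match is a description of the letters in that window and not a site of binding. Introns of ribosomal protein genes often house small nucleolar RNAs, which guide the modification of rRNA. A snoRNA gene lay within 28 members (35.0%, against 1.18%), 56 in all, and these hosts were 7 of 17 covered members, 10 of 30 flanked on both sides and 11 of 28 with a region downstream only.

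Ribosomal protein genes are used in every cell, so their regions do not tell which cells of the islet were sampled. The starts of a few marker genes were therefore checked. A region lay within 5 kb of 7 of 8 beta cell genes (all but Ins2), 0 of 2 alpha, 1 of 2 delta, 1 of 4 leukocyte, 1 of 2 endothelial, 1 of 2 acinar and 2 of 2 duct cell genes, and 1 of 3 genes of other tissues. The share over all autosomal protein-coding genes was 66.4%. The TSS was covered in 1 of 8 beta, 1 of 4 leukocyte, 1 of 2 endothelial and 2 of 2 duct cell genes. It was also covered in 1 of 3 genes of other tissues (Cdx2), against 32.5% of all genes. Counts this small beside these shares do not tell which cells were sampled. The part of other cell types in the regions at ribosomal protein genes was not tested.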

How the data were processed

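H3K4me1 ChIP-seq of cytokine treated islets gave 1 library. Per the study's methods, the authors mapped reads to NCBI37/mm9 with Bowtie2 (version 2.2.1 in the submitters' processing notes) and called enriched regions with ChromHMM, whose version is not given in the sources used here. The deposited file holds positions only (chromosome, start and end), with no count, score or control. Whether a later filter on read density preceded it is not stated.

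Members, lists and tests were chosen with earlier results of these data known. The TSS was the most upstream start of a transcript typed protein-coding in GENCODE M1. It was covered if inside a region, otherwise classed by regions within 5 kb upstream and downstream on the strand of the gene. Percentages of all 21418 autosomal protein-coding genes, members included, are given as background. Members are named under their class, except 5 that enter every count but are not reported here by name. Full values are given for members with no region, the 5 widest and 5 narrowest covering regions, the 5 narrowest (with ties) and 5 widest gaps, stalk genes, Rpsa and paralogs, and other members were named after their values were seen. Unique words were 32 bp words, tested every 50 bp. RefSeq starts were placed by a unique match of 60 bases within 3000 bp. Counting was done in Python 3.11.15 with numpy 2.4.6 and pandas 2.3.3, and the classification was tested on simulated data. Alternatives covered the TSS definition, window, region width, merging, neighbours, uniqueness and paralogs.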

Additional observations from a re-analysis of the deposited data

How the results depend on the processing

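No p-value was computed. No paired analysis was possible because all values came from 1 library, and no replicate could be left out. Of 129 values under alternatives, 113 kept within their limits (95% exact binomial interval for shares, a factor of 1.5 for medians and differences), 15 moved and 1 changed sign. Genes of 1 library are not replicates and these intervals are wide, so that count does not measure stability: members with no region went from 3.75% to 7.5% within 2 kb, and members flanked on both sides from 37.5% to 48.75% within 10 kb, inside their intervals. Allowing any annotated TSS made covered starts 42.5% of members, downstream only 23.75% and regions on 1 side 26.25%. It turned the difference from all genes in covered starts from -11.21 to 1.87 percentage points, the difference in downstream only to 12.64 and the covered difference from mitochondrial ribosomal protein genes from -26.12 to -11.45. Members had a median of 3.5 annotated TSS per gene and all genes a median of 2, and the part of this in the changes was not tested. Counting a region within 200 bp as covering gave 32.5% covered and a difference from all genes of -4.18. Members with at least 90% unique words gave -18.67, and the cause was not tested. Keeping regions of at least 1000 bp, which drops narrow upstream regions, gave 47.5% downstream only (difference from all genes 32.78), 17.5% on both sides and 13.75% with none. Members with no other gene start within 5 kb had none in 11.11%. A window of 10 kb lowered the downstream only difference from 21.11 to 12.68 (members 26.25%, all genes 13.57%), and the cause was not tested. One of 2 kb lowered the median covered length from 2900 to 1190 bp by construction. The median downstream distance and the median gap kept within a factor of 1.5 under every alternative run. The unknown depth limits every missing region.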

Other observations

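The X-linked ribosomal protein genes fell outside the autosomal rule. Of 4, Rpl36a (808 bp), Rpl39 (1797 bp) and Rps4x (2533 bp) had a region downstream only, and Rpl10, whose protein joins the large subunit late in its assembly, had none within 12951 bp. Of all 932 X-linked protein-coding genes, 8.80% had a region downstream only, 86.3% had no region within 5 kb and 1.93% had a covered TSS. Ribosomal protein pseudogenes, a list added after the values were seen, were 132 genes with -ps in their name, 53 of them typed protein-coding in GENCODE M1. Of these, 0 had a covered start and 89 (67.4%) had no region within 5 kb.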
